A study of Mus musculus with 3 samples.

Results

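ICN1 tumor cells were set against non-malignant ICN1-expressing cells, which asks how microRNAs (miRNAs) differ between transformed and untransformed T cells that both carry active NOTCH1. Of the 3 samples in the series these are 2, with 1 array each, and the members were the 450 probes with a human miRNA or let-7 name, mismatch probes left out, among 1491 probe identifiers on the array. The ICN1 tumor sample and the non-malignant sample were both CD4+CD8+ (double-positive) mouse T cells expressing ICN1, the intracellular domain of NOTCH1, which signals without a ligand. The third sample, control thymocytes, was normal CD4+CD8+ cells, and its array is given only as a level beside the other two. All samples had a Balb/c genetic background. The labels give no age, no time after the start of ICN1 expression, no promoter or delivery route for ICN1 and no number of animals. The names of the deposited tables carry a different week number for each sample, so time and malignancy cannot be told apart. Each array is a 2-colour Exiqon miRCURY LNA array, which carried Hy3 dye for the sample and Hy5 dye for a pool of equal amounts of the 3 samples. A value is log2(Hy3/Hy5), the sample over the pool, averaged over up to 4 spots, and a difference is the tumor array's value minus that of the non-malignant array. With 1 array per group no test was possible. The standard error (SE) beside a difference comes from the spots and covers neither animals nor cultures.

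A miRNA is a short RNA that guides Argonaute proteins to messenger RNAs and lowers their translation or stability, mostly through base pairing of its seed, bases 2 to 8 from the 5′ end. miRNAs with the same seed form a family with overlapping targets, and neighbouring miRNA genes are often cut from 1 transcript. Activating mutations of NOTCH1 are frequent in T-cell acute lymphoblastic leukaemia (T-ALL), and ICN1 can drive such a leukaemia in mice, often of CD4+CD8+ cells.

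The capture probes carry human names, and the mature mouse sequences printed here are those of RefSeq for GRCm38.p6, not the probe sequences. In each the seed is in capitals. The first set holds 3 of the miRNAs that were lower in the tumor sample by the largest folds. The genes of miR-451 and miR-144 lie on chromosome 11, and miR-31 on chromosome 4.
miR-451: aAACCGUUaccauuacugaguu
miR-144: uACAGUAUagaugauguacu
miR-31: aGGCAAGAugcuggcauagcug

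The second set shows the seed shared by miR-15b (chromosome 3) and miR-16 (chromosomes 3 and 14), both lower, and by miR-15a (chromosome 14), miR-195 and miR-497 (chromosome 11), which were under 2-fold.
miR-15b: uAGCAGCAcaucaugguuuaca
miR-16: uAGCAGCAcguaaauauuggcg
miR-15a: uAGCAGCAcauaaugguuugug
miR-195: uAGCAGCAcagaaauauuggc
miR-497: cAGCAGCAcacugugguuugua

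The third set holds 2 pairs with a common seed of which only the first member was at 2-fold. Counted from 1 at the 5′ end, miR-211 (chromosome 7) and miR-204 (chromosome 19) differ by the single substitution U17A, with the base of miR-211 first. miR-449 (chromosome 13) and miR-34a (chromosome 4), lined up base by base without gaps, differ at 7 positions, all after the seed. Part of that count comes from a run of bases that both hold at shifted positions.
miR-211: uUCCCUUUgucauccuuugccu
miR-204: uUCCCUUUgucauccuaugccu
miR-449: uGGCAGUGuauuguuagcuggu
miR-34a: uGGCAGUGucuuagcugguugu

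The last set holds further miRNAs with a value of 2-fold or more in either direction. Both arms of miR-142 come from chromosome 11, as does miR-22, miR-223 comes from chromosome X and miR-24 from chromosomes 8 and 13. miR-9 and its partner strand miR-9* have genes on chromosomes 3, 7 and 13, and miR-129, the one member of this set that was higher, on chromosomes 2 and 6.
miR-142-5p: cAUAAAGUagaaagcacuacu
miR-142-3p: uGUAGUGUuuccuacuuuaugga
miR-223: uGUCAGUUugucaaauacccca
miR-22: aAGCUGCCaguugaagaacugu
miR-24: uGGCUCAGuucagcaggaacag
miR-9: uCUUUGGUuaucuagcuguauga
miR-9*: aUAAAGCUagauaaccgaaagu
miR-129: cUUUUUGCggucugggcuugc

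A probe was called detected on an array when no fewer than 1 in 2 of its usable spots had a Hy3 mean more than 2 background SDs over the local background. Of the 450 probes, 260 were detected on the tumor array, 237 on the non-malignant one and 253 on the control one. The comparison holds the 272 probes that were detected on 1 or both of the compared arrays and had a value on each, while 176 were detected on neither and 2 more (miR-181d and miR-221) had no usable spot on 1 array. Of the 272, 223 were detected on both arrays. By name, 173 of the 272 match a mouse miRNA gene and 99 do not. The median Hy3 background was 70 intensity units on the tumor array, 82 on the non-malignant one and 77 on the control one.

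The labelled cell type was checked against miRNA markers. The pan-haematopoietic miR-142-5p and miR-142-3p and the thymocyte miRNAs miR-181a, miR-181b and miR-128a were detected on both arrays. Hy3 signals of these thymocyte miRNAs were 115, 184 and 297 on the tumor array and 165, 231 and 552 on the non-malignant array. Detected stromal, epithelial and muscle markers ran from 90.2 (miR-200c) to 1542 (miR-214) on the tumor array. Detection alone therefore does not set the thymocyte miRNAs apart from them. CD4, CD8 and ICN1 themselves are not miRNAs and were not measured. Of 8 stromal markers, miR-214 and miR-145 were detected on each array, and miR-143, miR-126, miR-199a and the other 3 were not. miR-214 was bright, with Hy3 signals of 1542 on the tumor array and 1850 on the non-malignant array. Of 7 epithelial markers 3 were detected on each array and 4, among them miR-200a and miR-205, on neither. Of 4 muscle and liver probes, miR-1 and the shared probe of miR-133a and miR-133b were detected on both compared arrays. The muscle miRNA miR-206 and the liver miRNA miR-122a were detected on neither. The mature lymphocyte marker miR-150 was detected on the non-malignant array and not on the tumor array. The erythroid markers miR-451, miR-144 and miR-486 were all detected on both arrays, with a summed Hy3 signal of 848 on the tumor array and 11994 on the non-malignant one, against 24229 on the control array. miR-451 makes up most of these sums, and miR-144 with miR-486 summed to 274 on the tumor array, 503 on the non-malignant one and 524 on the control one.

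At a threshold of 2-fold, 17 of the 272 probes were lower in the tumor sample, 6.25% of those compared, and 3 were higher, 1.1%. The other 252 lay between, 224 of the 272 within 0.5 log2 units of 0. The median difference was -0.04, with quartiles at -0.20 and 0.07, and 166 of the 272 probes lay below 0. Probes with a mouse gene of their name gave all 17 lower calls (9.83% of 173) and 1 higher call (0.578%). Those without one gave 0 lower calls and 2 higher calls (2.02% of 99). Among the 223 probes detected on both arrays, 15 were lower (6.73%) and 3 higher (1.35%). The lowest difference was that of miR-451 and the highest that of miR-637.

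**Figure D1:**
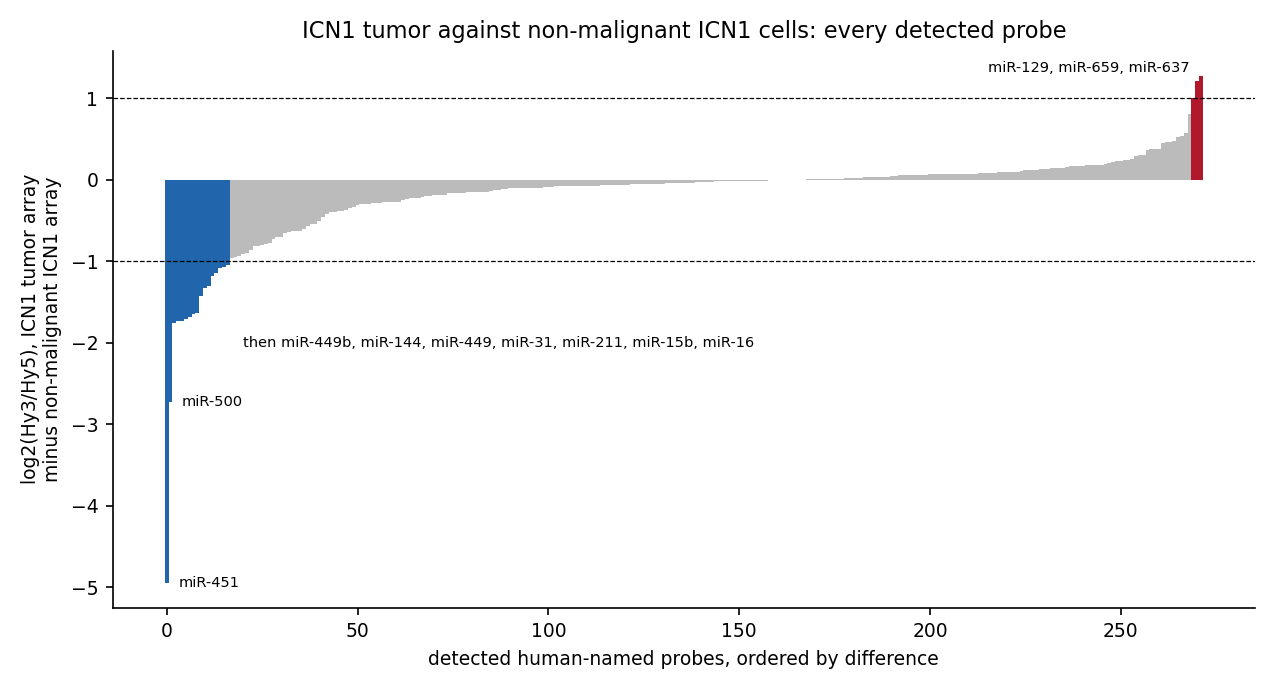
The log2 difference, ICN1 tumor array minus non-malignant array, is drawn as 1 bar for each of the 272 detected probes in rising order; dashed lines mark 2-fold, blue bars are 2-fold lower and red bars 2-fold higher. miR-451 at -4.94 and miR-500 at -2.73 stand below all other probes, while 224 bars lie within 0.5 of 0.

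The erythroid miRNA miR-451, which is processed by Argonaute 2 without Dicer, had a log2 ratio to the pool of -4.93 ± 0.0073 (SD over 4 spots) in tumor cells, 0.02 ± 0.011 in non-malignant cells and 1.21 ± 0.013 in control cells. Its Hy3 signal was 575 intensity units on the tumor array and 11490.5 on the non-malignant one, against 23705 on the control array. It was 30.8-fold lower in the tumor sample than in the non-malignant sample (-4.94, SE 0.0067). The fold depended on the scaling, being 12.6 with the Hy3 channel alone (-3.66) and 18.1 with loess fitted on mouse-matched probes (-4.18). Here and below, Hy3 alone means background-corrected Hy3 brought to a common distribution across arrays (quantile normalization). It is not the ratio of the raw Hy3 signals printed here. Fewer erythroid cells in a sample and less of the miRNA per cell cannot be told apart in bulk RNA. Its gene neighbour miR-144, also erythroid, had ratios of -1.11 in tumor cells, 0.63 in non-malignant cells and -0.09 in control cells. It was 3.33-fold lower (-1.74, SE 0.0067), at Hy3 signals of 101 on the tumor array and 227 on the non-malignant array, and by -0.98 with Hy3 alone. At the miR-144 spots the pool's Hy5 signal was 220 on the tumor array and 149 on the non-malignant array. That was a shift of 0.75 after centring on the median, and its part in the difference was not tested. The third erythroid marker, miR-486, had ratios of 0.11 in tumor cells, 0.56 in non-malignant cells and 0.87 in control cells, a difference of -0.45. The 3 markers thus all lay below 0, with 2 at 2-fold and a median of -1.74 beside -0.04 over all detected probes. Of those 272 probes, 61.0% had a negative difference and 6.25% a lower call.

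A probe for miR-144 with 1 mismatch had Hy3 signals of 151 on the tumor array and 930 on the non-malignant array and a difference of -2.77, the larger beside -1.74 for the perfect match. Over all 53 pairs of a mismatch probe and its perfect match, 21 had a perfect-match difference of -0.5 or lower. In 19 of these the mismatch probe also lay below 0, and in 20 its difference was the smaller in size, miR-144 being the exception. The mismatch probes for miR-16, with 1 and 2 mismatches, differed by -1.37 and -1.39 beside -1.64 for the perfect match.

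miR-15b and miR-16, repressors of BCL2 and of G1 cyclins, were both lower by nearly the same amount. miR-15b had ratios of -1.35 in tumor cells, 0.30 in non-malignant cells and 0.71 in control cells, and was 3.13-fold lower (-1.65, SE 0.014). miR-16 had ratios of -1.07 in tumor cells, 0.57 in non-malignant cells and 1.02 in control cells, and was 3.11-fold lower (-1.64, SE 0.0059). For both, the tumor array was lowest and the control array highest. Their Hy3 signals were 863 and 927 on the tumor array, against 2891 and 4262 on the non-malignant array. One gene of miR-16 lies beside that of miR-15b within the span of Smc4, a condensin gene, and the other beside that of miR-15a within the span of the long non-coding RNA Dleu2. miR-15a differed by -0.73 (SE 0.012), or by -0.07 with Hy3 alone. The other seed relatives lay nearer to 0 or above it, miR-195 at -0.27 and miR-497 at 0.38, which ran from -0.06 to 1.19 under other processing. miR-424, of the same family, lay at -0.02. The family of 6 detected probes had 2 at 2-fold lower, beside 6.25% of all compared probes, and a median of -0.50, or -0.10 with Hy3 alone.

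miR-449 and miR-449b, whose genes lie within the span of Cdc20b and which share the seed of the p53-induced miR-34 family, were lower to the same extent. miR-449 had ratios of -0.67 in tumor cells, 1.06 in non-malignant cells and -0.47 in control cells, and was 3.32-fold lower (-1.73, SE 0.020). miR-449b had ratios of -0.92 in tumor cells, 0.84 in non-malignant cells and -0.60 in control cells, and was 3.39-fold lower (-1.76, SE 0.035). For both, the non-malignant array stood above the other two. miR-34a, with the same seed, had a ratio of 0.36 in tumor cells, 0.38 in non-malignant cells and 0.45 in control cells, a difference of -0.02 (SE 0.032). miR-34c differed by -0.15, and miR-34b was not detected. Both miR-34a (up to 0.16) and miR-34c (0.05) lay above 0 in at least 1 other scaling.

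miR-500, an X-linked miRNA within the span of the chloride transporter gene Clcn5, had ratios of -1.53 in tumor cells, 1.20 in non-malignant cells and -0.80 in control cells. It was 6.63-fold lower (-2.73, SE 0.019), at Hy3 signals of 220 on the tumor array and 3877 on the non-malignant array. The pool's Hy5 signal at these spots, meant to be equal on all arrays, was 736 on the tumor array and 1944 on the non-malignant array, a shift of -1.29 after centring on the median. Its part in the difference was not tested. With Hy3 alone miR-500 differed by -3.55.

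miR-31, a miRNA lost in several tumor types, was not detected on the tumor array, where its Hy3 signal was 80.0, against 277 on the non-malignant one and 228 on the control one. Its ratios were -1.07 in tumor cells, 0.64 in non-malignant cells and 0.27 in control cells. The ratio was 3.27-fold lower, or 2.60-fold without normalization. These folds rest on a dim tumor signal that was not above background. miR-211, which lies within the span of Trpm1 and is known from melanocytes, had ratios of -1.47 in tumor cells, 0.21 in non-malignant cells and 1.06 in control cells. It was 3.21-fold lower (-1.68, SE 0.040), and by -1.02 with Hy3 alone. At the miR-211 spots the pool's Hy5 signal was 378 on the tumor array and 282 on the non-malignant array, a shift of 0.61 after centring on the median, and its part in the difference was not tested. miR-204, which differs from it by that substitution, had ratios of 0.25 in tumor cells, 0.23 in non-malignant cells and 0.21 in control cells, a difference of 0.01 (SE 0.027), at Hy3 signals of 115 on the tumor array and 120 on the non-malignant array.

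Of the miRNAs tied to blood lineages, miR-223, a regulator of granulocytes that also acts with NOTCH1 in mouse T-ALL, had ratios of -0.41 in tumor cells, 1.03 in non-malignant cells and -0.16 in control cells. It was 2.70-fold lower (-1.43, SE 0.027). The other detected members of the myeloid list, miR-424 and miR-124a, differed by -0.02 and -0.01, and miR-511 was not detected. miR-424 and miR-124a were dim, with Hy3 signals of 94.8 and 124 on the tumor array and 103 and 141 on the non-malignant array. Whether they follow myeloid cells here was not tested. The summed Hy3 signal of the 3 members of that list other than miR-223 was 299 on the tumor array and 329 on the non-malignant array.

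miR-142-5p, abundant in all blood cells, had ratios of -0.96 in tumor cells, 0.37 in non-malignant cells and 0.82 in control cells, a 2.52-fold lower value (-1.33, SE 0.014). Its partner arm miR-142-3p had ratios of -1.07 in tumor cells, 0.08 in non-malignant cells and 0.22 in control cells (-1.15, SE 0.013). Both arms are bright, and their values depended on the scaling. With loess fitted on mouse-matched probes alone miR-142-5p differed by -0.69 and miR-142-3p by -0.07, and with Hy3 alone by -1.78 and -0.42.

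miR-22, which lies within the span of the non-coding gene Mir22hg, had ratios of -0.69 in tumor cells, 0.62 in non-malignant cells and 0.46 in control cells. It was 2.48-fold lower (-1.31, SE 0.024). The neuronal miRNA miR-9 and its partner strand miR-9* were high on the non-malignant array only. miR-9 had ratios of -0.15 in tumor cells, 0.92 in non-malignant cells and -0.16 in control cells (-1.07, SE 0.031), and it was under 2-fold in 8 of 12 other settings. miR-9* was not detected on the tumor array and, with the reported scaling, was at least 2.06-fold lower, but its ratio was under 2-fold in 4 of 12 other settings (-0.94 without normalization). It had Hy3 signals of 81.1 in tumor cells, 166 in non-malignant cells and 79.9 in control cells.

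The clusters of miR-23, miR-27 and miR-24, which restrain T-cell effector programmes, had all 6 detected probes below 0 and 2 at 2-fold. The exception was miR-189 in 3 other scalings (up to 0.06). Among the 272 compared probes, 61.0% had a negative difference and 6.25% a lower call. The median of these clusters was -0.78, or -0.65 with probes undetected on the tumor array at their bound. miR-23b had ratios of -0.86 in tumor cells, 0.22 in non-malignant cells and 0.40 in control cells (-1.08, SE 0.014). miR-24, made from both clusters, had ratios of -0.91 in tumor cells, 0.14 in non-malignant cells and 0.76 in control cells (-1.05, SE 0.011). miR-27a was not detected on the tumor array and was at least 1.38-fold lower with the reported scaling. The rest were miR-23a (-0.77), miR-27b (-0.54) and miR-189 (-0.05), the other strand of a miR-24 gene. With loess on mouse-matched probes miR-23b and miR-24 were at -0.82 and -0.76, both under 2-fold.

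**Figure D2:**
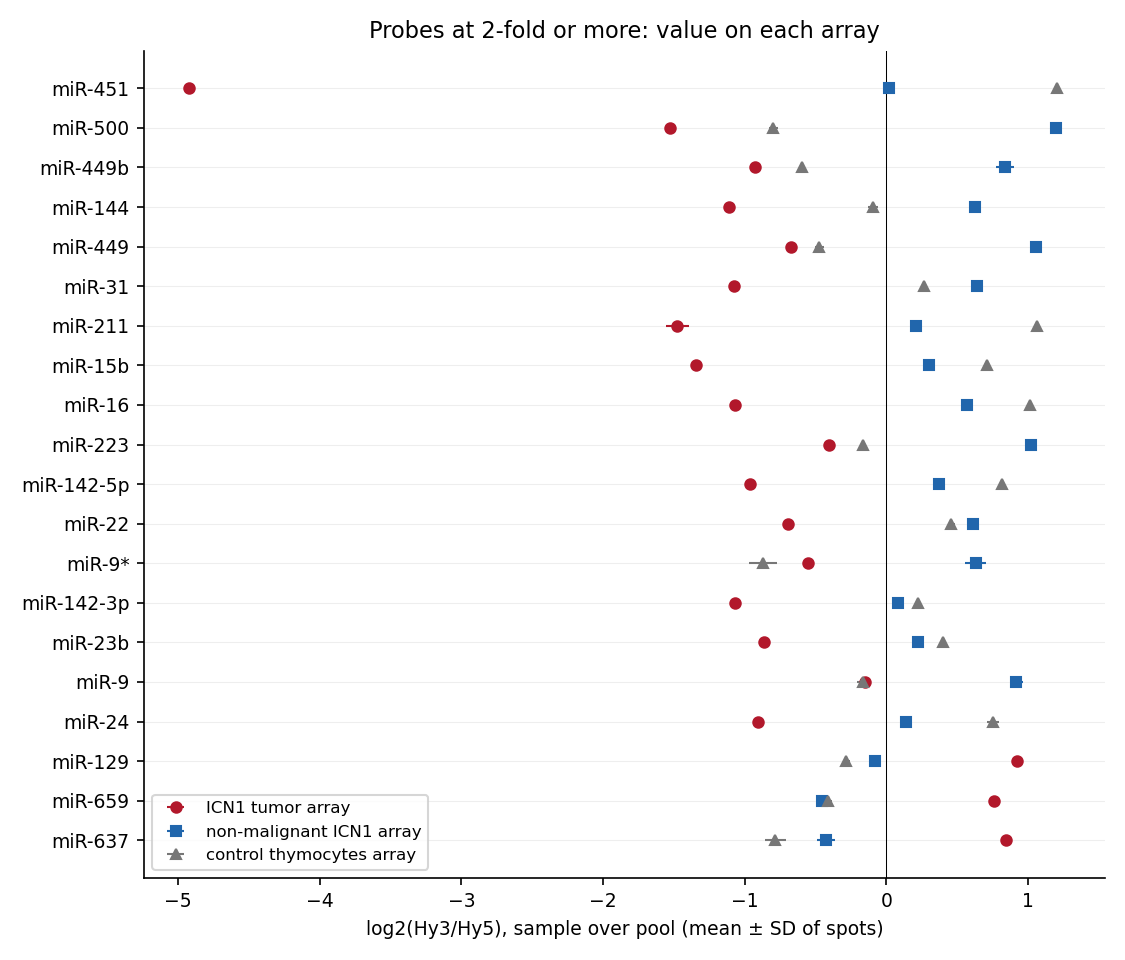
Points give log2(Hy3/Hy5), sample over pool, as the mean ± SD of up to 4 spots for the 20 probes at 2-fold or more, with red circles for the ICN1 tumor array, blue squares for the non-malignant array and grey triangles for the control array. The tumor array is lowest in 15 of the 17 lower probes, the exceptions being miR-9* and miR-9, and the control array is highest in 8 of the 17. Over all 272 detected probes the tumor array is lowest in 126 and the control array highest in 99.

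Across the 17 lower probes, the tumor array had the lowest of the 3 values in 15, where a lower call already puts it below the non-malignant array, and over all 272 probes it was lowest in 126 (46.3%). The non-malignant array was highest in 9, namely miR-500, miR-449b, miR-144, miR-449, miR-31, miR-223, miR-22, miR-9* and miR-9. The control array was highest in the other 8, namely miR-451, miR-211, miR-15b, miR-16, both miR-142 arms, miR-23b and miR-24. Over all 272 probes the non-malignant array was highest in 83, the control array in 99 and the tumor array in 90. A lower call already keeps the tumor array from being highest. The mean over the 3 arrays of the linear ratio, which is 1 if the pool holds equal shares and the scaling is right, was between 0.901 and 1.33 for the 17 and had a median of 1.03 over all detected probes.

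Of the 3 higher probes, only miR-129 has a mouse gene of its name. It had ratios of 0.92 in tumor cells, -0.08 in non-malignant cells and -0.28 in control cells, a difference of 1.0 (SE 0.021) that was under 2-fold in 7 of 12 other settings. Its Hy3 signal was 452 on the tumor array and 434 on the non-malignant array. At these spots the pool's Hy5 signal was 289 on the tumor array and 494 on the non-malignant array. That was a shift of -0.63 after centring on the median, and its part in the difference was not tested. miR-637 had ratios of 0.85 in tumor cells, -0.43 in non-malignant cells and -0.78 in control cells (1.27, SE 0.033). miR-659 had ratios of 0.76 in tumor cells, -0.45 in non-malignant cells and -0.41 in control cells (1.21, SE 0.0094), and it differed by 0.94 with Hy3 alone, under 2-fold, and by 2.10 with loess on mouse-matched probes. No mouse gene in the RefSeq table has either of these names, so what these probes bound in mouse RNA was not determined. The next 7 in order were miR-611 (0.81), miR-20b (0.57), miR-202 (0.54), miR-663 (0.53), miR-551a (0.47, but -0.48 with Hy3 alone), miR-320 (0.46) and miR-671 (0.46). The probes nearest the threshold on the inside were miR-24 (-1.05) and miR-129 (1.0), and on the outside miR-146a (-0.96) and miR-611 (0.81).

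**Figure D3:**
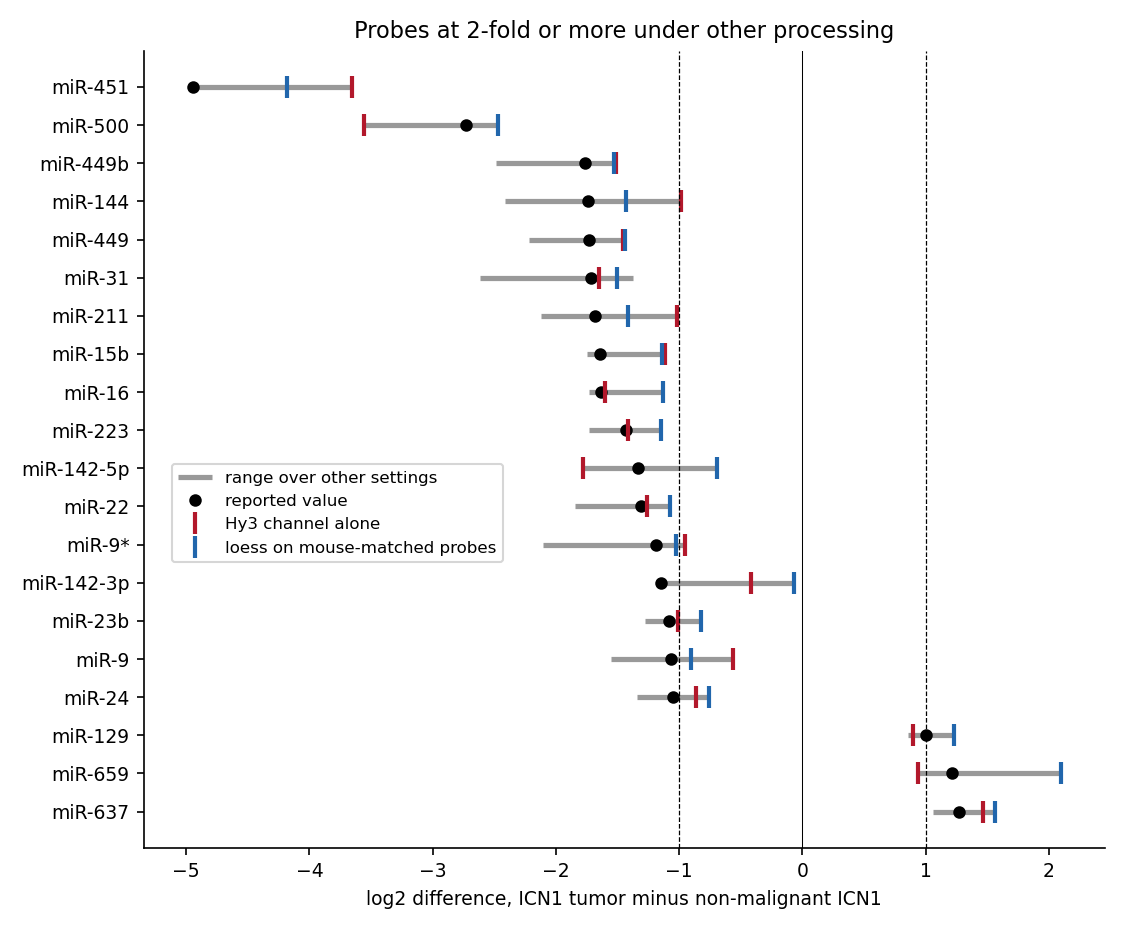
Black points give the reported log2 difference, ICN1 tumor minus non-malignant, of the 20 probes at 2-fold or more, and grey lines its range over 12 other processing settings, with red ticks for the Hy3 channel alone, blue ticks for loess on mouse-matched probes and dashed lines at 2-fold. All 20 keep their sign, and the ranges of miR-142-3p (-1.18 to -0.07) and miR-9 (-1.55 to -0.57) reach nearest to 0 among the lower probes.

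Of the 17 lower probes, 10 stayed at 2-fold in all 12 other settings: miR-451, miR-500, miR-449b, miR-449, miR-31, miR-211, miR-15b, miR-16, miR-223 and miR-22. Of the 3 higher ones miR-637 did. The pool's Hy5 signal differed between the tumor and non-malignant arrays with an SD of 0.383 over the 272 probes, and 95% of them lay within 0.855 of its median. In 9 probes it moved by 2-fold or more, and of these miR-500 was the one with a 2-fold difference in the ratio. For miR-346, the lowest, the pool moved by -2.07 and the ratio by -0.40.

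**Figure D4:**
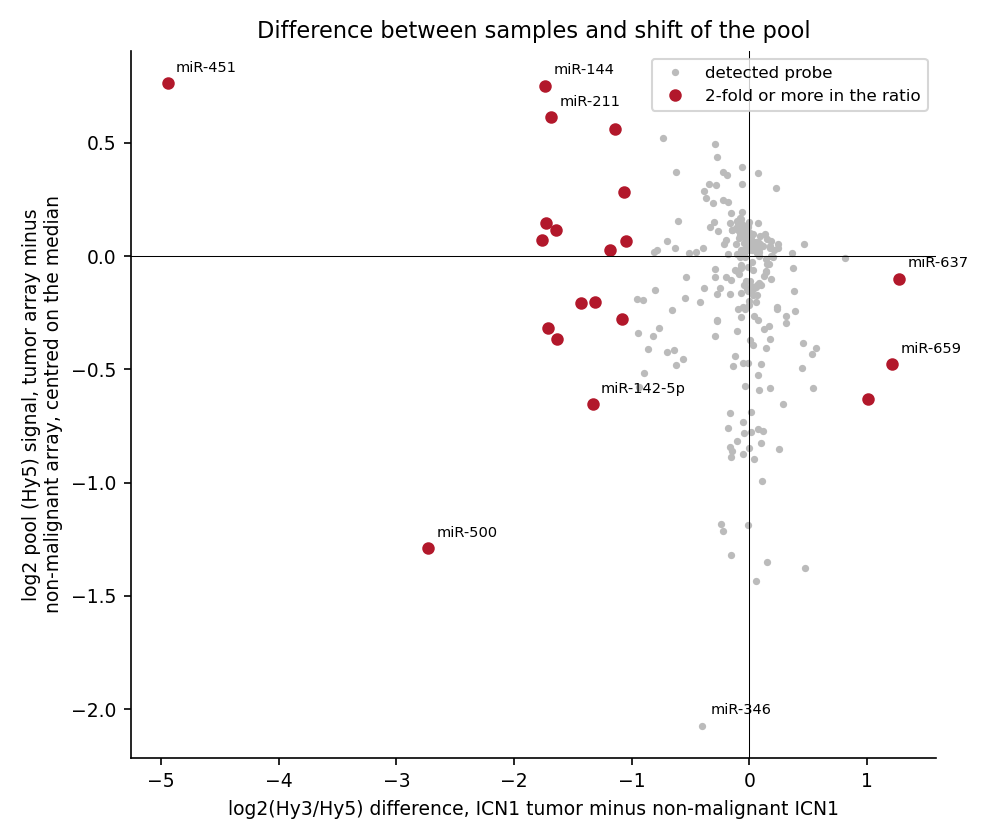
For the 272 detected probes the x axis gives the log2 ratio difference, ICN1 tumor minus non-malignant, and the y axis the log2 difference of the pool's Hy5 signal between the same arrays, centred on its median; red points are the 20 probes at 2-fold or more in the ratio. Among these, miR-500 is the one whose pool signal also moved by over 2-fold (-1.29), and miR-451 lies at 0.77 on the y axis.

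Neighbouring genes were compared where they start within 10000 bases of each other in the RefSeq annotation. This gave 27 groups with 2 or more detected probes, of which 17 had every probe below 0 and 6 held a lower call. Taken singly, 61.0% of the 272 probes had a negative difference and 6.25% a lower call. Whether neighbours share a direction more often than these shares imply was not tested. In 4 groups 2 probes were at 2-fold, namely miR-144 with miR-451, miR-449 with miR-449b, miR-15b with miR-16, and miR-23b with miR-24. With the reported scaling, the spread within a group was 0.0098 log2 units for miR-15b and miR-16 and 0.032 for miR-449 and miR-449b. It was 3.21 for miR-144 and miR-451. Probes of mature miRNAs with several gene copies, such as miR-16 and miR-24, count in more than 1 group.

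Several families lay mostly below 0 with no member at 2-fold. In the let-7 family, which represses LIN28, RAS and HMGA2, all 9 detected probes lay below 0, beside 61.0% of all 272 probes, though 2 did not in other scalings, from let-7a (-0.94), let-7c (-0.65), let-7b (-0.64) and let-7d (-0.63) to miR-98 (-0.18), with a median of -0.57. That median was -0.13 with loess on mouse-matched probes, where let-7c lay at 0.14 and miR-98 at 0.08, and with Hy3 alone miR-98 lay at 0.24. let-7a had Hy3 signals of 1876 in tumor cells, 6086 in non-malignant cells and 9308 in control cells, and ratios of -0.66 in tumor cells, 0.28 in non-malignant cells and 0.79 in control cells. In the MYC-repressed miR-30 family all 6 detected probes lay below 0 in every setting (median -0.58), led by miR-30b (-0.91), miR-30a-5p (-0.70), miR-30c (-0.63) and miR-30d (-0.54). Both miR-26 probes lay below 0, miR-26a at -0.90 and miR-26b at -0.82, in every setting below 0. miR-26a had ratios of -0.81 in tumor cells, 0.08 in non-malignant cells and 1.39 in control cells.

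In the miR-29 family, which represses DNA methyltransferases, miR-29a differed by -0.94, miR-29b by -0.29 and miR-29c, detected on the tumor array alone, by -0.19, or by 0.01 and 0.08 for these 2 with Hy3 alone. The miR-181 family, which sets how sensitive thymocytes are to antigen, had 3 of 4 detected probes below 0, miR-181a (-0.62), miR-181b (-0.34) and miR-181a* (-0.29), while miR-181c lay at 0.15 and, with Hy3 alone, miR-181b at 0.25. The thymus and brain miRNAs miR-128a and miR-128b differed by -0.30 and -0.27, the second by 0.04 with loess on mouse-matched probes. miR-150, a miRNA of mature lymphocytes, was detected on the non-malignant array and not on the tumor array, and differed by -0.08.

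Of the activation miRNAs, miR-146a, a brake on NF-kappaB, lay at -0.96. Its seed relative miR-146b was not detected on the tumor array and was at least 1.62-fold lower with the reported scaling. miR-21, raised in many tumors, had ratios of -0.19 in tumor cells, 0.61 in non-malignant cells and -0.52 in control cells, a difference of -0.80. miR-155 differed by -0.27 and miR-222 by 0.16. The 6 detected members had a median of -0.54, or -0.48 with miR-146b at its bound, and none at 2-fold.

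The miR-17-92 cluster and its paralogs, which promote lymphoid growth, were split about 0, with 6 of 13 detected probes below and 7 above, none at 2-fold and a median of 0.01 that ran from -0.02 to 0.21 over the other settings. miR-106b (-0.86), miR-19a (-0.37) and miR-20b (0.57) lay farthest out, followed by a miR-20a probe at 0.31. A second miR-20a probe lay at 0.12. Of the miRNAs known to cooperate with NOTCH1 in mouse T-ALL, miR-223 (-1.43) and miR-26a (-0.90) lay below 0 with miR-19b (-0.23, but 0.18 with Hy3 alone), and miR-92 (0.08) and both miR-20a probes lay above it, 1 of these at -0.02 with median centring. That list's median was -0.07 over 6 probes, but loess on mouse-matched probes gave 0.08 and the Hy3 channel alone 0.10.

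The miR-183, miR-96 and miR-182 cluster, induced in activated lymphocytes, had its 3 listed probes above 0 in every setting, miR-183 at 0.21, miR-182 at 0.18 and miR-96 at 0.06. The partner strand miR-182*, also detected but not in the list, lay at -0.04. Other lists lay close to the median of all probes. Progenitor miRNAs had 4 of 11 probes detected, led by miR-196b (0.18) and miR-10a (0.12), each just below 0 in 1 other setting, and a median of 0.06 (-0.07 at its lowest). The imprinted Dlk1-Dio3 cluster had 14 of 32 probes detected, with miR-654 at -0.70, miR-494 at -0.31 (0.48 with loess on mouse-matched probes) and a median of -0.00014. Stromal, epithelial, and muscle and liver lists had medians of -0.07, -0.07 and -0.0062, with no probe at 2-fold, and each of these 3 medians was above 0 in at least 1 other setting.

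**Figure D5:**
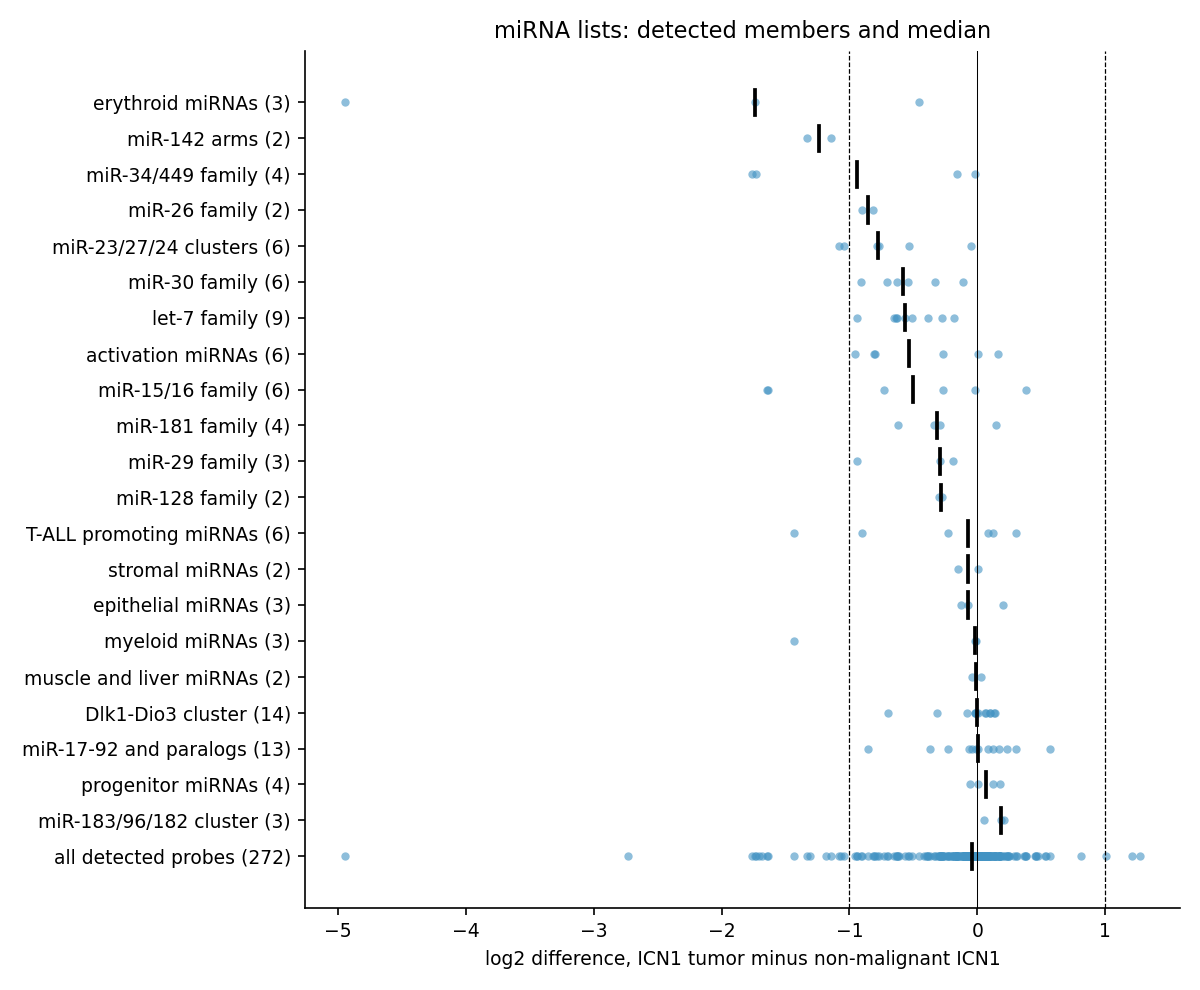
Each blue point is the log2 difference, ICN1 tumor minus non-malignant, of a detected list member, and black bars are the list medians, with the number of detected probes in brackets, all 272 in the lowest line and dashed lines at 2-fold. The erythroid, miR-142 and miR-34 with miR-449 lists have the lowest medians (-1.74, -1.24 and -0.94), and the cluster of miR-183, miR-96 and miR-182 the highest (0.18).

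The authors' deposited table of processed values has row numbers that match no member probe, so it was used for counts alone. The authors' deposited table gave a value on both arrays for 92 of its 345 rows, of which, if its values run as sample over pool, 13 (14.1%) were at 2-fold lower in the tumor sample and 0 at 2-fold higher. The lowest difference in the authors' deposited table was then -4.93, the next -2.67, and the median -0.18. If the values of the authors' deposited table run the other way, 13 were higher, 0 were lower and the highest was 4.93. Among the 272 probes compared here, the lowest were miR-451 at -4.94 and miR-500 at -2.73, and the highest difference was 1.27. The reading as sample over pool lies nearer to these, though no row could be matched to a probe.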

How the data were processed

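Total RNA was labelled with Hy3 and a pool of all 3 samples with Hy5, per the labels. The deposited scanner tables give signal and background per spot as intensity on a linear scale, not normalized, with a quality flag, a score, per the file headers. A deposited table of the authors' processed values appears to be in log2 units of sample over pool. Its scale, centring and direction are not stated, and its column medians were -0.17 for tumor, -0.05 for non-malignant and 0.12 for control. The image analysis software is not given in the sources used here.

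Each array had 6720 spots. Spots with flag 3 were dropped, 51 on the tumor array, 125 on the non-malignant one and 72 on the control one. Leaving out control spots, saturation was found at 3 spots in non-malignant cells, 0 in tumor cells and 0 in control cells. Whether any of the 3 belonged to a member probe was not tested. Background was corrected by normexp (offset 50), and log2(Hy3/Hy5) was normalized by global loess that gave control and mismatch spots no weight, in limma 3.58.1 under R 4.3.3. Spots were averaged per probe. Further steps used pandas 2.3.3 and numpy 2.4.6 in Python 3.11.15, with figures by matplotlib 3.10.9. On simulated data, the steps were tested with known changes. A fold written "at least" is the bound that the scaled Hy3 values allow for a probe detected on 1 array, with the reported normalization. No bound is given where it exceeds the ratio's own fold.

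Named were all probes at 2-fold, the 10 highest, up to 4 members of each list by size of difference, and partner strands, seed relatives and neighbours of probes at 2-fold. Further members were named to complete a list, after their values were seen. Names were matched to RefSeq genes of GRCm38.p6 (275 of 450 probes), and 58 of 63 probes with a listed mature form had a sequence. Members and lists were chosen with earlier results of these data known. Alternatives were background correction, normalization, the signal column, flags, the spot average and the detection filter. For the Hy3 channel alone, background-corrected log2 Hy3 was quantile-normalized between arrays, with control and mismatch spots left out. The number of arrays limits the precision.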

Additional observations from a re-analysis of the deposited data

Results flagged for a closer look

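Of the 736 probes annotated with no known human target, 488 were detected on the tumor array and 412 on the non-malignant array, against 456 on the control array. They were picked out because they belong to none of the comparisons and more of them were detected in tumor than in control cells. That order is not particular to them. Of the 450 human-named probes, 260 were detected on the tumor array, 237 on the non-malignant one and 253 on the control one. Median Hy3 backgrounds ran the opposite way (70, 82 and 77), and their part in the counts was not tested. Of the probes with no known human target, 495 were detected on at least 1 of the tumor and non-malignant arrays. Among these 495, 4 were at 2-fold lower and 3 at 2-fold higher in the tumor sample, with a median of 0.0015. What they bind in mouse RNA was not tested. No group had enough arrays to look for a sample standing apart from its replicates.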

How the results depend on the processing

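No paired analysis was possible because each group has 1 array, and for the same reason no array could be left out. The count of probes at 2-fold lower in tumor cells was 17 and ran from 12 (loess on mouse-matched probes) to 22 (normexp offset of 10) over the other settings, within 1.5 times of 17. The count at 2-fold higher was 3 and moved to 5 with a normexp offset of 10, to 8 with loess on mouse-matched probes, and to 1 with the Hy3 channel alone. The authors' deposited table, whose 92 rows with both values match no member probe, held 0 higher and 13 lower if its values run as sample over pool, and 13 higher and 0 lower if they run the other way. The 5 higher probes added by loess on mouse-matched probes were miR-612, miR-671, miR-320, miR-663 and miR-611. The median of all detected probes was 0.04 in that setting, and -0.04 as reported. All 17 lower and all 3 higher probes kept their sign in the 12 other settings. With Hy3 alone 12 of the 17 kept 2-fold, and with loess on mouse-matched probes also 12, with 10 in both. The lower calls lost in at least 1 setting were miR-144, miR-142-5p, miR-9*, miR-142-3p, miR-23b, miR-9 and miR-24, and the higher ones miR-659 and miR-129. The cause was not tested. Ordered by mean Hy3 signal, the 90 dimmest probes gave 1 lower call, the middle 91 gave 7 and the brightest 91 gave 9.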
